A study of Homo sapiens
Mus musculus with 8 samples.

Results

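AP-1 is a transcription factor made of a dimer of a Fos protein with a Jun protein, or of Jun proteins alone, and Egr1 is a zinc finger factor whose gene is switched on alongside those of AP-1. Jund, 1 of the Jun family genes, is expressed by most cells without a stimulus. The other genes described here are immediate early genes. Their transcription starts within minutes of a signal at the cell surface, from factors the cell already holds, and their transcripts are short-lived. In lymphocytes they rise after engagement of the antigen receptor, growth factors or serum, and the proteins they encode drive cytokine and cell cycle genes. The 10 genes described here, chosen by name, were Fos, Jun, Junb, Jund and Egr1 in mouse cells (ENSMUSG00000021250, ENSMUSG00000052684, ENSMUSG00000052837, ENSMUSG00000071076 and ENSMUSG00000038418) and FOS, JUN, JUNB, JUND and EGR1 in human cells (ENSG00000170345, ENSG00000177606, ENSG00000171223, ENSG00000130522 and ENSG00000120738). The choice was made with earlier results of these data known. The genes are 10 of 60736 genes of the combined mouse and human reference, and each carried at least 1 unique molecular identifier (UMI) in each of the lines of its species.

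The study mixed 4 lymphocyte lines in equal viable numbers and made droplet libraries of the mixture with the 10x Genomics kits 3′ v3, 5′ v1 and 3′ v2. EL4 is a mouse CD4+ T cell lymphoma line grown in RPMI, IVA12 is a mouse B-lineage line grown in DMEM, Jurkat is a human CD4+ T cell leukemia line grown in RPMI, and TALL-104 is a human CD8+ cytotoxic T cell leukemia line grown in IMDM with IL-2. The medium therefore differed between lines, and a level that follows the line cannot be told apart from one that follows its culture. Of 8 libraries listed, 7 were analysed: 3′ v3 replicates 1 to 4 (library numbers 21, 22, 23 and 24), 5′ v1 replicates 1 and 2 (numbers 5 and 6) and 3′ v2 replicate 2 (number 2); 3′ v2 replicate 1 was not analysed here. The study's sample table places these libraries in 4 cell mixtures: numbers 21+23, numbers 22+24, both 5′ v1 libraries, and the 3′ v2 library. Kit and mixture can therefore not be told apart, libraries of 1 mixture share their cells, and p-values measure the spread between libraries, which may be technical.

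A cell was a barcode with at least 1000 UMIs, over 80% of them from 1 species. A mouse cell was called EL4 where Lgals1, S100a6 and Perp together had at least 5 times the UMIs of Epcam, Cd24a, Ctss and Ckap4, and IVA12 in the reverse case. A human cell was called TALL-104 where NKG7, CST7 and CD8A held at least 0.1% of its UMIs and Jurkat where they held under 0.02%. This gave 10905 EL4, 5829 IVA12, 8105 Jurkat and 2666 TALL-104 cells, 27505 of the 32377 barcodes of at least 1000 UMIs. TALL-104 was shallow (median 1929 to 2762 UMIs per cell by library, against 10075 to 31126 in the other lines) and held only 70 and 30 cells in the 5′ v1 libraries and 41 in the 3′ v2 library.

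Levels are UMIs of the gene in every 1000000 UMIs of the cell's species, summed over the cells of 1 line in 1 library, abbreviated CPM. Sums of UMIs were compared with edgeR's quasi-likelihood test across all genes of the species, with Benjamini-Hochberg adjustment and a call at an adjusted p under 0.05. Fold changes are log2 with their standard error, written ±. In a sum over cells, fewer cells with the transcript and less transcript per cell cannot be told apart, and the counts per cell are therefore given further on.

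The labels were checked on genes the rule did not use. All 6 EL4 markers in the reference, T cell genes such as Cd3d and Thy1, were above IVA12 in every library. Of 10 B cell genes 4 (Cd79b, Ms4a1, Cd74 and Ebf1) were above EL4 in IVA12, while others, such as Cd79a, H2-Aa, H2-Ab1, Pax5 and Cd22, had medians under 1 CPM, so IVA12 lacked several defining B cell transcripts. Cd22 and Pax5 went against the label, Cd22 at 0 to 0.251 CPM in IVA12 and 0.678 to 2.28 in EL4, and Pax5 with a median of 0.402 against 0.853 in EL4. For TALL-104, 5 of 8 cytotoxic genes were above Jurkat in every library and CD8B went against the label, with a median of 0.475 CPM against 6.30 in Jurkat. For Jurkat 3 of 6 genes (CD28, TAL1 and CD1E) were above TALL-104 throughout, while CD3D (median 937 CPM against 1018) and CD3E (525 against 817) had the higher median in TALL-104. Libraries held 24790710 to 251164949 UMIs, and no pair shared more than 24 barcodes. In the 22+24 mixture only 48.1% and 44.2% of Jurkat cells had at most 10% mitochondrial UMIs, against 96.8% and 99.4% in 21+23, and of TALL-104 cells 67.5% and 63.7%, against 87.1% and 99.8%.

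**Figure D1:**
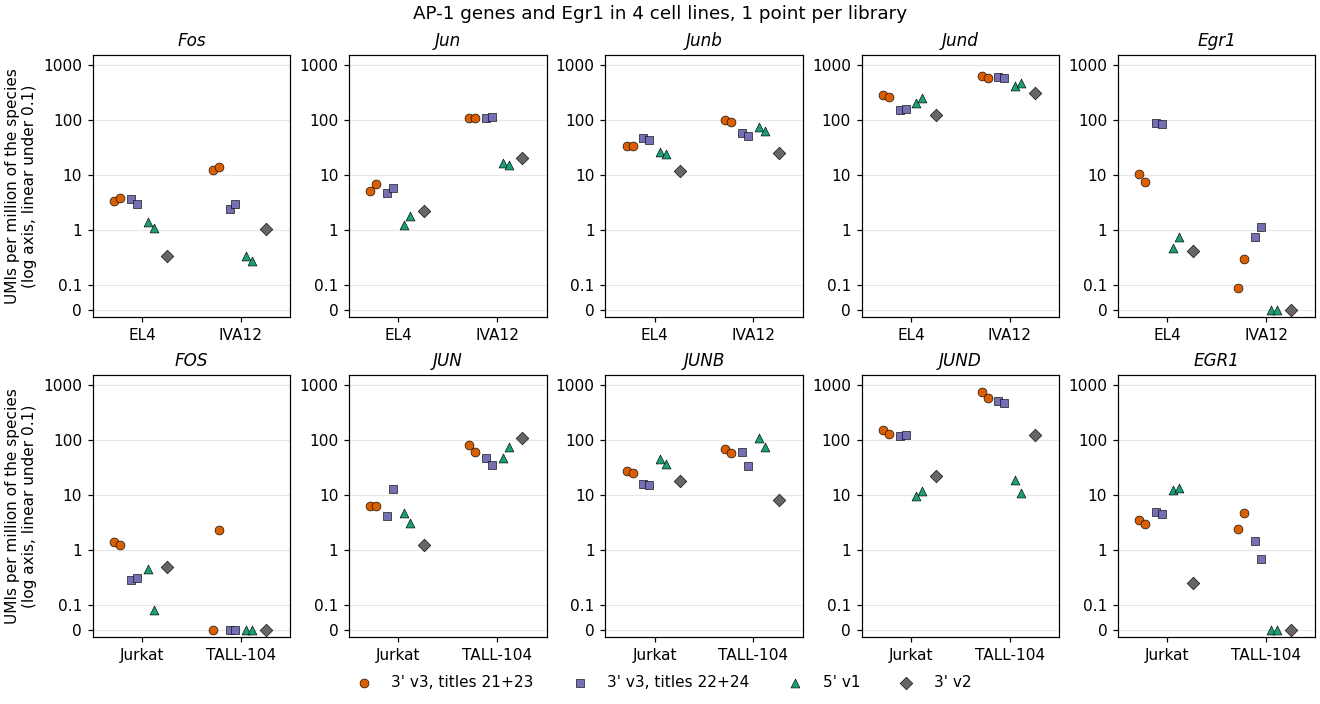
Level of each gene in each line, 1 point per library, on a log axis that is linear under 0.1 (CPM), with colour and shape for the kit and, for 3′ v3, the cell mixture. Egr1 in EL4 lies near 10 CPM in 21+23 and above 80 in 22+24, and JUND in both human lines lies lower in 5′ v1 than in any 3′ v3 library.

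The mouse lines differed most in Egr1 and Jun. Egr1 was higher in EL4, Jun, Junb and Jund were higher in IVA12, and Fos changed sides between libraries. These 4 of 5 genes passed the test, where 77.0% of all mouse genes tested did, so the count itself is near the background and the sizes carry the description.

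Jun encodes the c-Jun subunit, which can dimerise with Fos proteins or with itself. In EL4 it stood at 5.21 and 6.96 CPM in the 21+23 libraries, 4.79 and 5.79 in 22+24, 1.25 and 1.79 in 5′ v1, with 2.20 in the 3′ v2 library. In IVA12 it stood at 109.7 and 109.8 CPM in 21+23, 107 and 113 in 22+24, 16.2 and 15.3 in 5′ v1, with 20.7 in the 3′ v2 library. IVA12 was above EL4 in 7 of 7 libraries and the groups did not overlap. The log2 difference, EL4 less IVA12, was -3.90 ± 0.20 (15.0-fold lower in EL4, adjusted p = 4.70e-08, edgeR). The part of background in the EL4 level was not tested.

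Egr1 encodes a factor that binds GC-rich promoters and is induced by MAP kinase signals. It stood at 10.6 and 7.48 CPM in EL4 in 21+23 and at 86.4 and 82.6 in 22+24, but at 0.471 and 0.759 in 5′ v1, with 0.424 in the 3′ v2 library. IVA12 had 2 and 17 UMIs in 21+23 (0.0894 and 0.305 CPM), 9 and 29 in 22+24 (0.734 and 1.16 CPM) and 0 in the other libraries. EL4 was higher in 6 of 7 libraries, although its own level ranged widely. In the 3′ v2 library the 0 of IVA12 allows up to 1.04 CPM by a floor of 3 counts, above the EL4 level there. The fitted log2 difference within libraries was 6.00 ± 0.29 (adjusted p = 3.45e-08, edgeR). An Egr1 UMI was found in 0.260 and 0.878% of IVA12 cells in 21+23 and 1.89 and 2.82% in 22+24. Human cells, which lack the mouse gene, carried one in 0.0458 and 0.414% and 1.12 and 0.943% of cells, though they were shallower. With every cell thinned to 1000 UMIs, the IVA12 shares were 0.00735 and 0.0351% (21+23) and 0.0616 and 0.110% (22+24), and the human shares 0.00486 and 0.0478% (21+23) and 0.169 and 0.155% (22+24). Thinned to 5000 UMIs, they were 0.0414 and 0.123% (21+23) and 0.361 and 0.584% (22+24) in IVA12 and 0.0372 and 0.136% (21+23) and 1.16 and 0.509% (22+24) in human cells. The human share was the higher one in 0 of these 4 libraries unthinned, in 3 at 1000 UMIs and in 2 at 5000, and the part of background in the IVA12 level was not tested. Median depths were 31126 and 30259 (21+23) and 27871 and 26454 UMIs (22+24) in the IVA12 cells, and 13803 and 14982 and 4581 and 5855 in the human cells.

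Junb, a Jun family member that often counters c-Jun, was at 33.2 and 34.01 (21+23), 46.0 and 42.8 (22+24), 26.2 and 24.5 (5′ v1) and 11.6 CPM (3′ v2) in EL4. In IVA12 it was at 98.9 and 90.6 (21+23), 58.0 and 49.8 (22+24), 72.8 and 62.5 (5′ v1) and 24.8 CPM (3′ v2). IVA12 was higher in each library, with a log2 difference of -0.98 ± 0.17 (adjusted p = 3.22e-04, edgeR).

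Jund, the Jun family member that most cells express without a stimulus, was at 280.2 and 258 (21+23), 150.4 and 159 (22+24), 200.3 and 250.1 (5′ v1) and 121 CPM (3′ v2) in EL4. In IVA12 it was at 633 and 569 (21+23), 592 and 562 (22+24), 402 and 470.0 (5′ v1) and 312 CPM (3′ v2). The lines did not overlap, and the log2 difference was -1.24 ± 0.15 (adjusted p = 2.60e-05, edgeR).

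Fos, whose protein needs a Jun partner to bind DNA, was at 3.44 and 3.81 (21+23), 3.70 and 2.92 (22+24), 1.41 and 1.08 (5′ v1) and 0.339 CPM (3′ v2) in EL4. In IVA12 it was at 12.4 and 13.9 (21+23), 2.37 and 2.95 (22+24), 0.334 and 0.273 (5′ v1) and 1.04 CPM (3′ v2). IVA12 was above EL4 in the 21+23 libraries and in 3′ v2, and below it in 5′ v1. The 3′ v2 levels come from 3 UMIs in IVA12 and 4 in EL4, too few to order the lines there. The IVA12 levels in 5′ v1 come from 8 and 3 UMIs. Over all 7 libraries the difference of -0.32 ± 0.50 did not pass (adjusted p = 0.571, edgeR). Within the 4 libraries of 3′ v3 it was -1.02 and passed (adjusted p = 0.0391, edgeR). It was -1.73 within 21+23 (adjusted p = 1.52e-06, edgeR, n = 2 libraries), 0.25 within 22+24 (adjusted p = 0.288, edgeR) and 2.25 within 5′ v1 (adjusted p = 2.65e-06, edgeR).

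In the human lines the 3 Jun family genes were all higher in TALL-104, and FOS and EGR1 were too sparse there to be tested. All 3 of 3 tested genes passed, against 65.2% of human genes. JUN was at 6.29 and 6.28 (21+23), 4.13 and 12.9 (22+24), 4.67 and 3.14 (5′ v1) and 1.26 CPM (3′ v2) in Jurkat. In TALL-104 it was at 81.0 and 60.8 (21+23), 46.5 and 34.7 (22+24), 47.2 and 75.9 (5′ v1) and 108 CPM (3′ v2). The 5′ v1 levels come from 10 and 7 UMIs and the 3′ v2 level from 13. A single cell held 4 of the 10 UMIs and another 3 of the 7 (29.0 and 44.5 CPM without these cells). The lines did not overlap, and the log2 difference, Jurkat less TALL-104, was -3.40 ± 0.29 (10.6-fold, adjusted p = 1.17e-10, edgeR).

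JUND stood at 151 and 127 (21+23), 121 and 123 (22+24), 9.77 and 11.7 (5′ v1) and 22.5 CPM (3′ v2) in Jurkat. In TALL-104 it stood at 747 and 586 (21+23), 501 and 471 (22+24), 18.9 and 10.8 (5′ v1) and 124 CPM (3′ v2), and the 5′ v1 levels come from 4 and 1 UMIs. Every 3′ library was higher in TALL-104, and the 5′ v1 libraries overlapped. The log2 difference was -2.15 ± 0.19 over all libraries (adjusted p = 2.83e-10, edgeR) and -0.63 within 5′ v1 (adjusted p = 0.627, edgeR), where the TALL-104 level rests on 5 UMIs.

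JUNB was at 27.6 and 25.6 (21+23), 16.2 and 15.5 (22+24), 44.9 and 36.3 (5′ v1) and 18.0 CPM (3′ v2) in Jurkat. TALL-104 held 69.0 and 58.9 (21+23), 60.0 and 34.01 (22+24), 109 and 75.9 (5′ v1) and 8.29 CPM (3′ v2), the last from 1 UMI. TALL-104 was higher in 6 of 7 libraries, the exception being 3′ v2, and the log2 difference was -1.38 ± 0.17 (adjusted p = 9.86e-08, edgeR).

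FOS had the fewest UMIs of the 5 human genes in both human lines, summed over all libraries, although EGR1 was lower in Jurkat of 3′ v2. Jurkat held FOS at 1.41 and 1.24 CPM in 21+23, 0.295 and 0.320 in 22+24, 0.456 and 0.0825 in 5′ v1, with 0.506 in the 3′ v2 library. TALL-104 had 5 FOS UMIs, all in 3′ v3 replicate 3, where 15.3% of the UMIs of the median TALL-104 cell were of mouse genes. The 0 in both 5′ v1 libraries allows up to 9.87 CPM and the 0 in the 22+24 libraries up to 1.42 CPM, by a floor of 3 counts, so a level like that of Jurkat was not detectable at this depth in TALL-104 of 5′ v1. EGR1 was at 3.57 and 2.97 (21+23), 5.01 and 4.59 (22+24), 12.3 and 13.4 (5′ v1) and 0.253 CPM (3′ v2) in Jurkat. In 3′ v3 replicate 2 of these, 1 cell held 10 of the 17 EGR1 UMIs, and the level without it was 2.07 CPM. In TALL-104 EGR1 was at 2.41 and 4.75 CPM in 21+23 and 1.501 and 0.694 in 22+24, from 15 UMIs in all, and at 0 in the other libraries, which in 5′ v1 again allows up to 9.87 CPM. Intervals and floors cover counting error only.

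The kits were then compared within each line, 4 libraries of 3′ v3 against 2 of 5′ v1. A 3′ kit reads the 3′ end of a transcript and the 5′ kit its 5′ end. Most of the called changes were toward 3′ v3, up to Egr1 in EL4 and JUND in both human lines, and 1 gene, EGR1 in Jurkat, was higher in 5′ v1. For these called genes the single 3′ v2 library, though of a 3′ kit, did not always lie with 3′ v3. It lay under both 5′ v1 libraries for Egr1 (0.424 CPM), Fos (0.339) and Junb (11.6) in EL4. It lay between the kits for Jun in both mouse lines and JUND in both human lines, and under both for EGR1 in Jurkat (0.253 CPM). The part of transcript end, kit or mixture in these levels was not tested. The counts of members called were 4 of 5 in EL4 (background 36.7%), 1 of 5 in IVA12 (9.66%), 2 of 5 in Jurkat (17.5%) and 1 of 3 tested in TALL-104 (4.32%). With plain CPM in place of scaling factors, the share of higher genes among all calls in TALL-104 was 40.8%, against 54.7%.

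**Figure D2:**
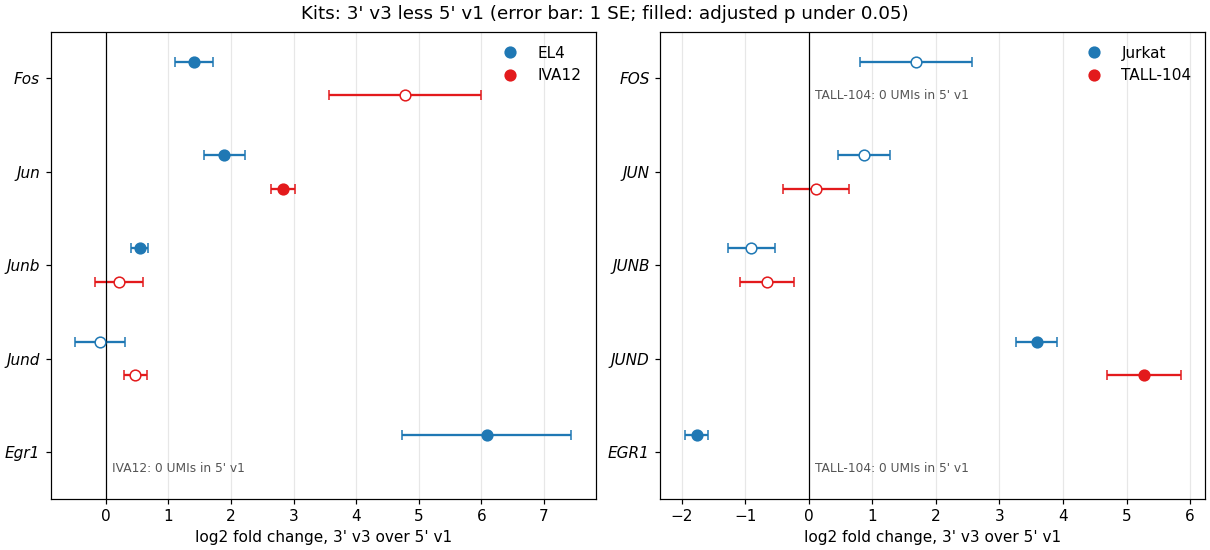
Log2 fold change of 3′ v3 over 5′ v1 in each line (x axis), with an error bar of 1 SE and filled points for adjusted p under 0.05 (edgeR). JUND lies at 3.58 in Jurkat and 5.27 in TALL-104, while mouse Jund lies near 0 in EL4; genes with 0 UMIs in 5′ v1 have no point, and the sign of JUN in TALL-104 flips without scaling factors.

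JUND gave the clearest kit difference of the human genes. By the levels above, no 3′ v3 library overlapped a 5′ v1 library in either human line. The single 3′ v2 library lay between them, at 22.5 CPM in Jurkat and at 124 CPM in TALL-104, the latter from 15 UMIs. The log2 difference was 3.58 ± 0.32 in Jurkat (11.99-fold, adjusted p = 0.00167, edgeR) and 5.27 ± 0.58 in TALL-104 (38.6-fold, adjusted p = 8.34e-05, edgeR). In TALL-104 the call was lost without 5′ v1 replicate 1, which leaves 1 UMI in 5′ v1 (log2 difference 5.99, adjusted p = 0.0627, edgeR). For the mouse gene no difference was called over both mixtures: Jund differed by -0.091 ± 0.39 in EL4 (adjusted p = 0.874, edgeR) and by 0.47 ± 0.19 in IVA12 (adjusted p = 0.159, edgeR). Against single 3′ v3 mixtures Jund passed, in opposite directions in EL4, 0.38 with 21+23 (adjusted p = 0.0276, edgeR) and -0.83 with 22+24 (adjusted p = 8.35e-05, edgeR). In IVA12 it was 0.63 with 21+23 (adjusted p = 2.71e-04, edgeR) and 0.31 with 22+24 (adjusted p = 6.23e-04, edgeR). Such fits set 2 libraries of 1 mixture against 2 of another, so their p-values leave out the spread between mixtures. Mouse and human genes were fitted apart, so the contrast between species was not tested.

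Egr1 in EL4 was 67.8-fold higher in 3′ v3 (log2 6.08 ± 1.35, adjusted p = 0.0125, edgeR), and the 4 3′ v3 libraries did not overlap the 2 of 5′ v1. Because the 2 mixtures of 3′ v3 differ in this gene, the size depends on which is used. It was 4.05 with 21+23 and 6.89 with 22+24. In IVA12 no 5′ v1 cell carried an Egr1 UMI against 57 UMIs in 3′ v3, where a floor of 3 counts over both 5′ v1 libraries is 0.0859 CPM and the pooled level was 0.243 CPM in 21+23 and 1.02 in 22+24. The fit did not pass over both mixtures (adjusted p = 0.106, edgeR), and it passed in DESeq2 (adjusted p = 0.0110) and with 22+24 alone (adjusted p = 1.31e-06, edgeR). The part of background in those 57 UMIs (human cells, above) was not tested.

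Jun was higher in 3′ v3 in both mouse lines, by 1.90 ± 0.32 in EL4 (adjusted p = 0.00477, edgeR) and by 2.84 ± 0.19 in IVA12 (adjusted p = 0.00186, edgeR). No 3′ v3 library overlapped a 5′ v1 library in either line, and in IVA12 the order was 3′ v3, then the single 3′ v2 library, then 5′ v1. The difference itself was larger in IVA12, with an interaction of -0.94 ± 0.27 (adjusted p = 0.0231, edgeR). The part of background in the EL4 level of Jun was not tested. JUN of the human lines differed by 0.87 ± 0.41 in Jurkat (adjusted p = 0.175, edgeR) and 0.11 ± 0.52 in TALL-104 (adjusted p = 0.930, edgeR), neither past the threshold. Against single mixtures JUN in Jurkat passed, at 0.76 with 21+23 (adjusted p = 0.00170, edgeR) and 1.11 with 22+24 (adjusted p = 5.09e-04, edgeR). In 22+24 a single Jurkat cell held 49 of the 121 JUN UMIs of 3′ v3 replicate 4 (7.70 CPM without it). Replicate 2 held 14 JUN UMIs.

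Fos was higher in 3′ v3 by 1.41 ± 0.30 in EL4 (adjusted p = 0.0106, edgeR). In IVA12, where 5′ v1 held 11 Fos UMIs, it differed by 4.78 ± 1.21, just short of the threshold (adjusted p = 0.0538, edgeR), although the groups did not overlap. It passed under 7 of 14 alternatives, among them DESeq2 (adjusted p = 1.47e-06), no filter (adjusted p = 0.0334, edgeR) and no scaling factors (adjusted p = 0.0450, edgeR). The interaction of line with kit was -3.25 ± 1.01 (adjusted p = 0.0349, edgeR). Within single 3′ v3 mixtures the IVA12 difference was 5.54 (21+23) and 2.99 (22+24), both past the threshold (adjusted p = 9.56e-08 and 5.49e-08, edgeR). FOS in Jurkat differed by 1.69 ± 0.88 (adjusted p = 0.214, edgeR), and by 2.10 with 21+23 alone (adjusted p = 4.35e-04, edgeR).

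Junb was 0.54 ± 0.13 higher in 3′ v3 in EL4 (adjusted p = 0.0179, edgeR), and its difference in IVA12 was 0.21 ± 0.39 (adjusted p = 0.776, edgeR). The IVA12 value changed side with the mixture and passed with each, 0.65 with 21+23 (adjusted p = 1.63e-04, edgeR) and -0.45 with 22+24 (adjusted p = 8.00e-05, edgeR). JUNB was lower in 3′ v3 than in 5′ v1 in its mean in both human lines, without passing the test over both mixtures (Jurkat -0.90 ± 0.37, adjusted p = 0.133; TALL-104 -0.66 ± 0.43, adjusted p = 0.392, edgeR). Against single mixtures JUNB passed in Jurkat, at -0.47 with 21+23 (adjusted p = 0.00280, edgeR) and -1.57 with 22+24 (adjusted p = 1.19e-10, edgeR), and in TALL-104 with 22+24 (-1.27, adjusted p = 0.0115, edgeR). EGR1 in Jurkat was -1.76 ± 0.18 (adjusted p = 0.00249, edgeR), with both 5′ v1 libraries above all 4 of 3′ v3.

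Leaving out a 5′ v1 library leaves 1 in that arm, which is then assumed to vary like the 3′ v3 libraries. Calls over all genes fell with it, and whether the calls lost this way are weaker differences was not tested. Both 5′ v1 libraries come from 1 mixture, so the kit calls count libraries of the same cells as replicates. Leaving out 5′ v1 replicate 1 ended the calls of Egr1 (5.76), Fos (1.67), Jun (1.67) and Junb (0.63) in EL4, Jun in IVA12 (2.91), EGR1 in Jurkat (-1.77) and JUND in TALL-104. Leaving out replicate 2 ended those of Egr1 (6.38), Fos (1.22) and Junb (0.46) in EL4, again with no change of direction. The interaction calls of Jun and Fos were also lost without either 5′ v1 library (Jun -1.28 and -0.71, Fos -3.15 and -3.26). In all, 2 of 5 mouse members had an interaction of line with kit, against 30.6% of mouse genes, and 0 of 4 human members did, against 1.32%; at an unadjusted p under 0.05 the human count was 1 (JUND), and DESeq2 gave 0. Jund, not called in its interaction (-0.69 ± 0.25, adjusted p = 0.0634, edgeR), was called under 4 alternatives, with no filter (adjusted p = 0.0176, edgeR), in DESeq2 (adjusted p = 0.0295) and without 3′ v3 replicate 1 or 3 (adjusted p = 0.0202 and 0.0104, edgeR). Among all mouse calls of this interaction 56.3% were higher, and 69.5% without scaling factors.

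The 2 mixtures of 3′ v3 gave the comparison with 1 kit and 1 chemistry, 2 libraries a side. With 1 mixture a side, the p-values rest on the spread between 2 libraries of the same cells and say nothing of how other mixtures would vary. Leaving out a library leaves 1 in its arm, assumed to vary like the other. Egr1 was lower in 21+23 in EL4, and Fos and Junb were higher in 21+23 in IVA12, as FOS and JUNB were in Jurkat. Members called were 4 of 5 in EL4 (background 56.8%), 5 of 5 in IVA12 (67.5%), 3 of 5 in Jurkat (63.5%) and 3 of 3 tested in TALL-104 (39.3%). Most genes moved in this comparison in 3 of the lines, so the sizes and the directions are described rather than the counts. Without scaling factors the median of all genes moved by -0.36, -0.24, -0.39 and -0.33 on the log2 scale in these lines, in that order. The share of higher genes among all calls then went from 52.7% to 22.9% in EL4 and from 49.5% to 34.02% in IVA12. In Jurkat it went from 51.5% to 28.9%, and in TALL-104 from 48.7% to 19.9%. Differences under about the size of the median shift thus depend on the scaling. Some larger ones also lost their call without scaling factors, such as Jun in EL4 (0.56, then 0.19) and JUNB in TALL-104 (0.87, then 0.54).

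**Figure D3:**
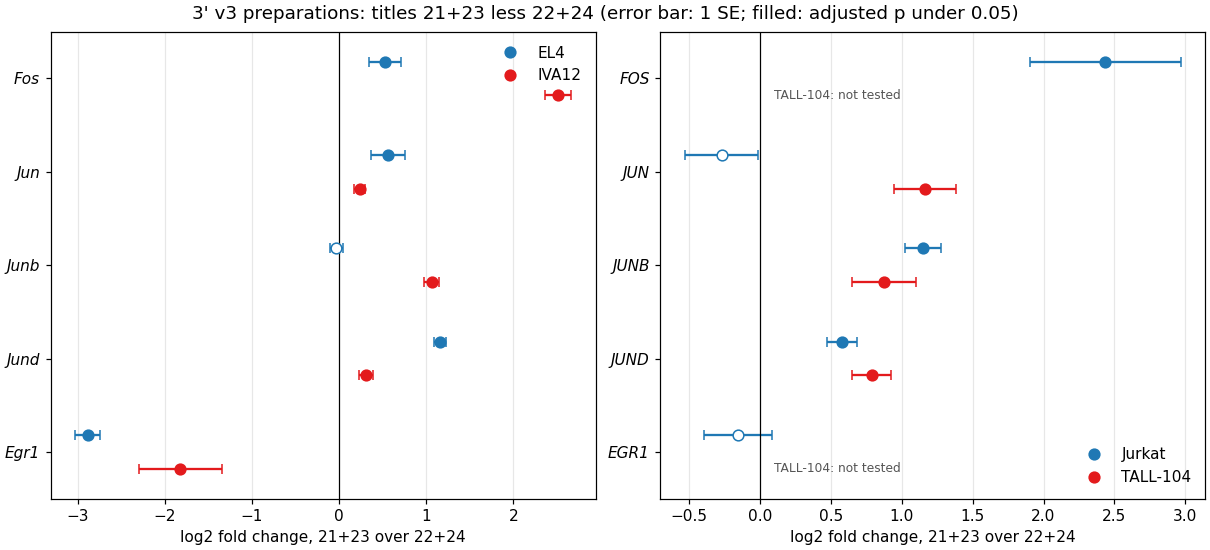
Log2 fold change of the 21+23 libraries over the 22+24 libraries of 3′ v3 in each line (x axis), with an error bar of 1 SE and filled points for adjusted p under 0.05 (edgeR). Egr1 lies at -2.88 in EL4 and Fos at 2.51 in IVA12, and Jun in IVA12 is at -0.0064 without scaling factors.

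Egr1 in EL4 moved most of the mouse members. It was 10.6 and 7.48 CPM in 21+23 and 86.4 and 82.6 CPM in 22+24, 7.37-fold lower in 21+23 (log2 -2.88 ± 0.14, adjusted p = 1.54e-04, edgeR). Cells with at most 10% mitochondrial UMIs gave 10.5 and 7.14 CPM in 21+23 and 87.3 and 82 in 22+24, so the difference was as large there. In IVA12 the fitted value was -1.82 ± 0.48 (adjusted p = 0.00724, edgeR), and this call was lost without 3′ v3 replicate 4 (-1.38, adjusted p = 0.192, edgeR). The free RNA of the 22+24 libraries, read from barcodes under 100 UMIs, also held more Egr1 (29.9 and 22.9 CPM) than that of 21+23 (5.84 and 7.45 CPM). The thinned share of human cells with an Egr1 UMI was also higher in 22+24 than in 21+23, and the part of either in the IVA12 value was not tested.

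Fos in IVA12 was 12.4 and 13.9 CPM in 21+23 and 2.37 and 2.95 in 22+24 (5.71-fold, log2 2.51 ± 0.15, adjusted p = 1.31e-06, edgeR). Within 22+24, 1 cell held 13 of the 29 UMIs of replicate 2 (1.31 CPM without it), and 42 of the 74 UMIs of replicate 4 lay in cells with at most 10% mitochondrial UMIs (1.84 CPM there). In EL4 its difference was 0.53 ± 0.18 (adjusted p = 0.0472, edgeR). That call was lost under 7 settings, among them plain CPM (0.16) and leaving out 3′ v3 replicate 2, 3 or 4 (0.69, 0.45 and 0.33). The difference between the lines was itself called, with an interaction of -1.94 ± 0.23 (adjusted p = 6.60e-04, edgeR). FOS in Jurkat, at 1.41 CPM or less, was also higher in 21+23, by 2.44 ± 0.53 (adjusted p = 8.27e-04, edgeR), from 42 and 74 UMIs in 21+23 and 1 and 3 in 22+24. A FOS UMI was found in 2.58 and 2.10% of Jurkat cells in 21+23 and 0.344 and 0.337% in 22+24, and in 0.0719 and 0.0988% (21+23) and 0 and 0.121% (22+24) of the deeper mouse cells.

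Junb was higher in 21+23 in IVA12 by 1.06 ± 0.087 (adjusted p = 5.04e-06, edgeR) and did not pass in EL4 (-0.032 ± 0.073, adjusted p = 0.737, edgeR), with an interaction of -1.09 ± 0.11 (adjusted p = 1.59e-04, edgeR). Without scaling factors the EL4 value was -0.40 and passed (adjusted p = 0.00323, edgeR). JUNB was higher in 21+23 by 1.1496 ± 0.12 in Jurkat (adjusted p = 7.68e-07, edgeR) and by 0.87 ± 0.23 in TALL-104 (adjusted p = 0.00368, edgeR). The TALL-104 call was lost under 3 settings, without 3′ v3 replicate 4 (0.40, adjusted p = 0.326, edgeR), without scaling factors (0.54, adjusted p = 0.0638, edgeR) and in DESeq2 (adjusted p = 0.0680). In TALL-104 cells with at most 10% mitochondrial UMIs, JUN, JUNB and JUND kept their direction and their call (edgeR). In Jurkat cells with at most 10% mitochondrial UMIs JUNB was at 27.7 and 25.6 CPM in 21+23 and 21.6 and 15.5 in 22+24.

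Jund was higher in 21+23 in EL4, by 1.16 ± 0.068 (adjusted p = 1.54e-04, edgeR), with 280.2 and 258 CPM against 150.4 and 159 and no overlap. In IVA12 it was higher by 0.30 ± 0.080 (adjusted p = 0.00737, edgeR), and the interaction was 0.87 ± 0.11 (adjusted p = 7.21e-04, edgeR). The IVA12 call was lost with plain CPM (0.059) and without 3′ v3 replicate 4 (0.29, adjusted p = 0.0705, edgeR). JUND was higher by 0.58 ± 0.11 in Jurkat and 0.79 ± 0.14 in TALL-104 (adjusted p = 1.70e-04 and 7.92e-05, edgeR). The Jurkat value was 0.19 and did not pass without scaling factors. In Jurkat cells with at most 10% mitochondrial UMIs the call was kept (edgeR), but the JUND levels overlapped. They were 150.7 and 126.6 CPM in 21+23 and 118.9 and 137.0 in 22+24. The interaction was -0.41 ± 0.093 (adjusted p = 2.06e-04, edgeR) and lost without 3′ v3 replicate 4 (adjusted p = 0.113, edgeR).

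Jun was the member whose mixture difference was smallest in IVA12, 0.24 ± 0.065 (adjusted p = 0.00928, edgeR), and it was -0.0064 with plain CPM, so its direction depends on the scaling. The IVA12 call was also lost without 3′ v3 replicate 2 (0.22, adjusted p = 0.0605, edgeR). In EL4 it was 0.56 ± 0.19 (adjusted p = 0.0429, edgeR), a call lost under 7 settings, among them leaving out 3′ v3 replicate 2, 3 or 4 (0.46, 0.30 and 0.71). JUN in TALL-104 was higher in 21+23, by 1.17 ± 0.22 (adjusted p = 1.80e-04, edgeR), and its Jurkat value was -0.27 ± 0.26 (adjusted p = 0.377, edgeR). The Jurkat value passed in both directions under other settings: it was 0.98 without 3′ v3 replicate 4 (adjusted p = 0.0130, edgeR), but -0.62 without replicate 2 (adjusted p = 0.00308, edgeR), -0.37 without replicate 1 (adjusted p = 0.0332, edgeR) and -1.02 in cells with at most 10% mitochondrial UMIs (adjusted p = 0.0303, edgeR). The interaction of -1.64 ± 0.27 (adjusted p = 9.27e-08, edgeR) rests on 3′ v3 replicate 4, where 1 Jurkat cell held 49 of 121 JUN UMIs: without that library the interaction was -0.11 (adjusted p = 0.958, edgeR), and without that cell the Jurkat level there was 7.70 CPM instead of 12.9. Jurkat cells with at most 10% mitochondrial UMIs held 96 JUN UMIs in 3′ v3 replicate 4 (23.9 CPM) and 3 in replicate 2 (2.03 CPM). The 49 UMIs of that cell are among the 96. EGR1 in Jurkat showed -0.16 ± 0.24 (adjusted p = 0.589, edgeR).

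Over both species 3 of 5 mouse and 2 of 4 human members had an interaction of line with mixture, where 11.9% of mouse genes and 17.5% of human genes had one. Without 3′ v3 replicate 1 these were 5 of 5 and 3 of 4, with Jun (adjusted p = 0.00285, edgeR), Egr1 (adjusted p = 0.0126, edgeR) and EGR1 (adjusted p = 0.0432, edgeR) also called, and without replicate 4 both human calls were lost. Of all mouse calls 67.2% were higher, and 30.1% without scaling factors or 48.5% with RLE scaling; of the human calls 57.2% were higher, and 73.2% without scaling factors.

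The counts per cell show how the sums were spread over cells. Egr1 in EL4 was concentrated in cells with many UMIs in the 22+24 libraries. There 29.8 and 31.6% of EL4 cells carried an Egr1 UMI, against 9.29 and 7.11% in 21+23 and 0.982 and 1.93% in 5′ v1. After thinning each cell to 1000 UMIs the shares were 6.39 and 6.90% (22+24), 0.928 and 0.572% (21+23) and 0.0616 and 0.0991% (5′ v1).

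Cells with 10 or more Egr1 UMIs were 49 and 115 in the 22+24 libraries (7.54 and 7.74%), 8 and 5 in 21+23 (0.398 and 0.121%) and 0 in the other 3 libraries. In 22+24 86.3 and 84.6% of the Egr1 UMIs lay in cells with 5 or more, against 41.9 and 27.8% in 21+23. The EL4 cells had a median depth of 27968 and 25764 UMIs in 22+24 and 24890 and 22812 in 21+23. The share of human cells with an Egr1 UMI was at most 1.12%.

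**Figure D4:**
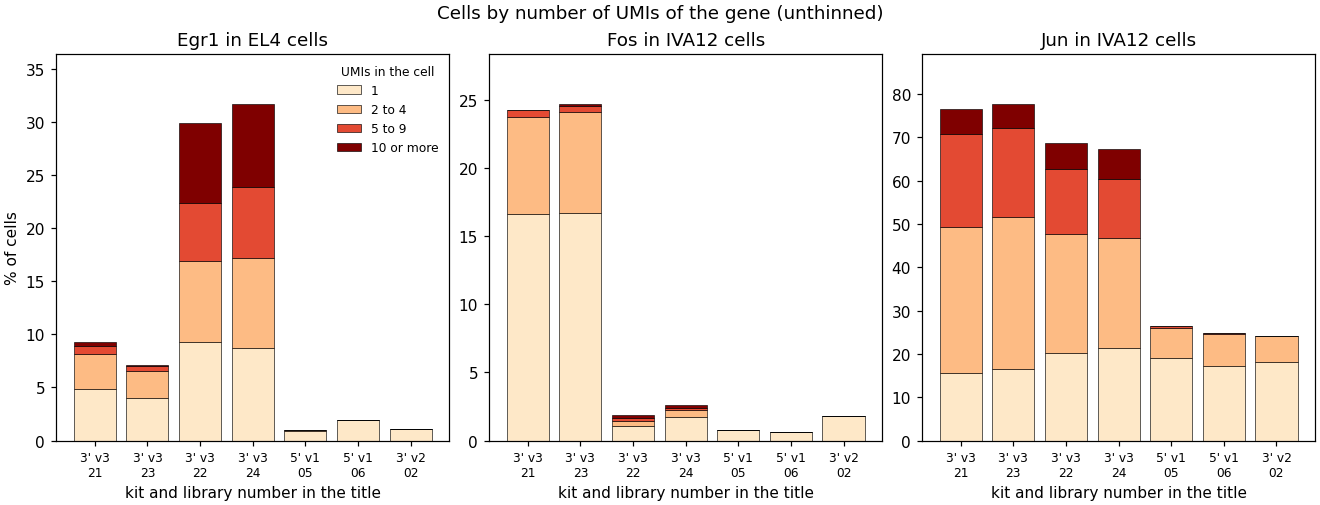
Share of cells (% of the line's cells, unthinned) that carry 1, 2 to 4, 5 to 9, or 10 or more UMIs of Egr1 (EL4), Fos (IVA12) and Jun (IVA12), 1 bar per library. Egr1 reaches 29.8% and 31.6% of EL4 cells in the 22+24 libraries with a dark segment of 10 or more UMIs, while Fos in IVA12 reaches 24.3% and 24.7% in 21+23, mostly as 1 UMI.

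Fos in IVA12 was spread over many cells with single UMIs in 21+23. A UMI was found in 24.3 and 24.7% of IVA12 cells in 21+23 and in 1.89 and 2.62% in 22+24, and cells of 5 or more held 7.58 and 14.5% of the Fos UMIs in 21+23 and 65.5 and 60.8% in 22+24. The few Fos-high cells were thus a larger part of the smaller sum. Human cells had a Fos UMI in 0.0915 and 0.658% (21+23) and 0 and 0.270% (22+24) of cells, at the median depths given above for Egr1. In 5′ v1 the IVA12 share was 0.777 and 0.658%.

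Jun in IVA12 was found in most cells of every 3′ v3 library, 76.6 and 77.6% in 21+23 and 68.8 and 67.3% in 22+24, and in 26.4 and 24.8% in 5′ v1. Cells with 5 or more UMIs held 65.4 and 63.1% of its UMIs in 21+23 and 64.5 and 67.9% in 22+24 but 6.19 and 2.98% in 5′ v1. In EL4 the shares with a Jun UMI were 8.201 and 10.1% in 21+23 and 8.77 and 9.35% in 22+24. Human cells of the same libraries, which were shallower, had one in 0.549 and 3.61% (21+23) and 1.31 and 1.08% (22+24). Thinned to 1000 UMIs, the EL4 shares were 0.667 and 0.884% (21+23) and 0.514 and 0.489% (22+24). The human shares were 0.0549 and 0.344% (21+23) and 0.297 and 0.231% (22+24), below those of EL4 in each of these libraries. Free RNA, read from barcodes under 100 UMIs, held Jun at 23.4 and 48.4 CPM in 21+23. It held 56.1 and 57.4 CPM in 22+24 and 7.56 and 6.03 in 5′ v1. The part of background in the EL4 level of Jun was not tested. Thinned to 1000 UMIs, 9.97 and 10.1% (21+23) and 9.70 and 9.03% (22+24) of IVA12 cells kept a Jun UMI in 3′ v3 and 1.74 and 1.66% in 5′ v1.

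JUND was found in most human cells of 3′ v3: 83.5 and 82.4% of Jurkat cells in 21+23, 69.4 and 63.2% in 22+24. In TALL-104 the shares were 69.9 and 63.7% in 21+23 and 66.7 and 62.5% in 22+24. In 5′ v1 they were 15.7 and 19.3% in Jurkat and 5.71 and 3.33% in TALL-104. Mouse cells of the 3′ v3 libraries carried a JUND UMI in at most 5.45% at a median of 25311 UMIs, deeper than the Jurkat cells. At 1000 UMIs per cell TALL-104 kept a JUND UMI in 48.0 and 37.9% (21+23) and 36.3 and 33.7% (22+24) of cells, and Jurkat in 14.6 and 11.9% (21+23) and 12.6 and 12.2% (22+24).

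EGR1 in Jurkat was rare per cell but uneven. A UMI was found in 7.16 and 7.38% of cells (5′ v1), 4.91 and 4.55% (21+23) and 1.37 and 2.14% (22+24). Median depth was 17444 and 17902.5 UMIs in 21+23 but 10913 and 10075 in 22+24. Thinned to 1000 UMIs, the shares were 0.947 and 1.016% (5′ v1), 0.352 and 0.251% (21+23) and 0.369 and 0.397% (22+24). At 5000 UMIs they were 3.738 and 3.626%, 1.403 and 1.223%, and 1.066 and 1.201%, in that order. The order of the mixtures thus changed with the thinning. Unthinned, cells of 5 or more held 54.6 and 62.3% of the EGR1 UMIs (5′ v1), 13.2 and 11.9% (21+23) and 88.2 and 37.2% (22+24). In each 22+24 library such cells were 1 of 5 to 9 UMIs and 1 of 10 or more. The highest share of mouse cells with an EGR1 UMI was 0.313%, in 3′ v3 replicate 3, where those cells had a median of 25311 UMIs. The highest single Jurkat cell held 35 EGR1 UMIs, in 5′ v1 replicate 1.

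Members were then read together in the same cells, thinned to 5000 UMIs, as a description with no test. EL4 cells of 3′ v3 with an Egr1 UMI also carried a Junb UMI more often than those without, by 10.9 and 6.65 percentage points in 21+23 and 21.4 and 14.1 in 22+24, over 65 and 75 cells with Egr1 in 21+23 and 99 and 258 in 22+24. The Jun share differed by 1.76 and 2.53 points in 21+23 and 2.78 and -0.296 points in 22+24. In IVA12 the share with Jun was 47.5 and 59.0% of Fos-positive and 40.6 and 38.4% of Fos-negative cells in 21+23, over 40 and 100 Fos-positive cells. In 22+24 only 2 and 11 cells kept a Fos UMI.

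The other genes of the response were read as lists: further AP-1 family genes, further immediate early genes, the kinases and factors upstream of them, and the inhibitors they induce. Between the mouse lines, where 77.0% of all genes were called, 6 of 9 tested AP-1 family genes were higher in EL4 and 1 lower (median log2 0.52, all genes 0.0044). Maf (6.31) and Batf (5.32), factors of T helper cells, and Maff (1.39) were higher, and Fosb (-1.47) was lower. Of 20 further immediate early genes 9 were higher and 9 lower, among them the nuclear receptor genes Nr4a1 (5.16) and Nr4a2 (-5.84) in opposite directions.

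All 11 tested feedback inhibitors differed between the mouse lines, where 77.0% of all genes did, 7 higher and 4 lower in EL4 (median 1.70). The phosphatase genes Dusp4 (6.66) and Dusp6 (4.05), whose products dephosphorylate ERK, and Spred2 (5.89), which restrains Raf, were higher, and Spred1 (-5.11) was lower. Dusp6 stood at 4.33 to 20.4 CPM in EL4 and at 0.345 to 0.996 in IVA12. Of 19 upstream kinases and factors 8 were higher and 4 lower, with Elk3 (3.87) and Creb1 (2.82) the most changed.

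Between the human lines the further immediate early genes were mostly lower in Jurkat: 15 of 19 were lower and 3 higher, where 65.2% of all genes were called (median -2.27, all genes 0.054). KLF6 (-4.54), the antiproliferative genes BTG2 (-4.47) and BTG1 (-3.52), and the stress gene GADD45B (-3.50) led the list. The ERK phosphatase genes DUSP4 (-7.76) and DUSP6 (-5.42) were lower in Jurkat too, with DUSP6 at 0.660 to 4.38 CPM there and 46.5 to 141 in TALL-104. Of the inhibitors 3 were higher and 4 lower of 10. Of the AP-1 family 6 of 10 were lower, led by MAF (-7.08), and 3 higher, led by BATF3 (3.11). Upstream, 4 were higher and 8 lower.

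In the kit comparison 36.7% of all genes were called in EL4, 9.66% in IVA12, 17.5% in Jurkat and 4.32% in TALL-104. Of the 22, 21, 21 and 17 further immediate early genes tested in EL4, IVA12, Jurkat and TALL-104, 2, 2, 1 and 0 were higher in 3′ v3 and 5, 1, 3 and 2 lower. Klf2, a quiescence factor of lymphocytes, was lower in 3′ v3 in EL4 (-2.13) and higher in IVA12 (2.48), with a called interaction of -4.65 ± 0.33 (adjusted p = 4.64e-05, edgeR). KLF2 was higher in 3′ v3 in Jurkat (2.88), and CITED2 was lower in Jurkat (-1.17) and TALL-104 (-2.40). MAP2K2, which encodes the ERK kinase MEK2, was higher in 3′ v3 in both human lines (2.58 and 2.77), at 34.2 to 235 CPM over the Jurkat libraries. Of the AP-1 family, 2 genes in EL4 (Batf3 3.11, Maff 1.82) and 2 in IVA12 (Jdp2 2.04, Fosl2 0.77) were higher in 3′ v3, and Fosl2 was lower in EL4 (-1.42). MAFG was higher in Jurkat (1.19) and TALL-104 (1.97). Of the inhibitors 3 were higher and 1 lower in Jurkat, and Dusp6 was higher in EL4 (1.19).

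Between the 3′ v3 mixtures some other genes of the response changed in the direction of Egr1 in EL4 or of Fos in IVA12, and others in the opposite one. In EL4 Egr2 (-3.62), Nr4a1 (-1.87), Zfp36 (-1.22), whose product destabilises AU-rich transcripts, and Dusp4 (-1.21) were lower in 21+23, as Egr1 was, and Fosb (3.01) and Ier3 (1.06) were higher. Nr4a1 stood at 8.04 and 7.24 CPM in 21+23 and at 43.0 and 29.3 CPM in 22+24, with no overlap. In IVA12 Fosb (5.40), Ier3 (2.24), Nfkbia (1.41), an inhibitor of NF-kB, and Ier2 (1.36) were higher in 21+23, as Fos was. Fosb there was at 21.8 and 17.4 CPM in 21+23 and at 0.653 and 0.478 CPM in 22+24. Fosb, Ier2 and Ier3 also differed in their mixture effect between the lines (interactions -2.33, -1.36 and -1.16, adjusted p = 0.00740, 8.61e-05 and 0.00388, edgeR).

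**Figure D5:**
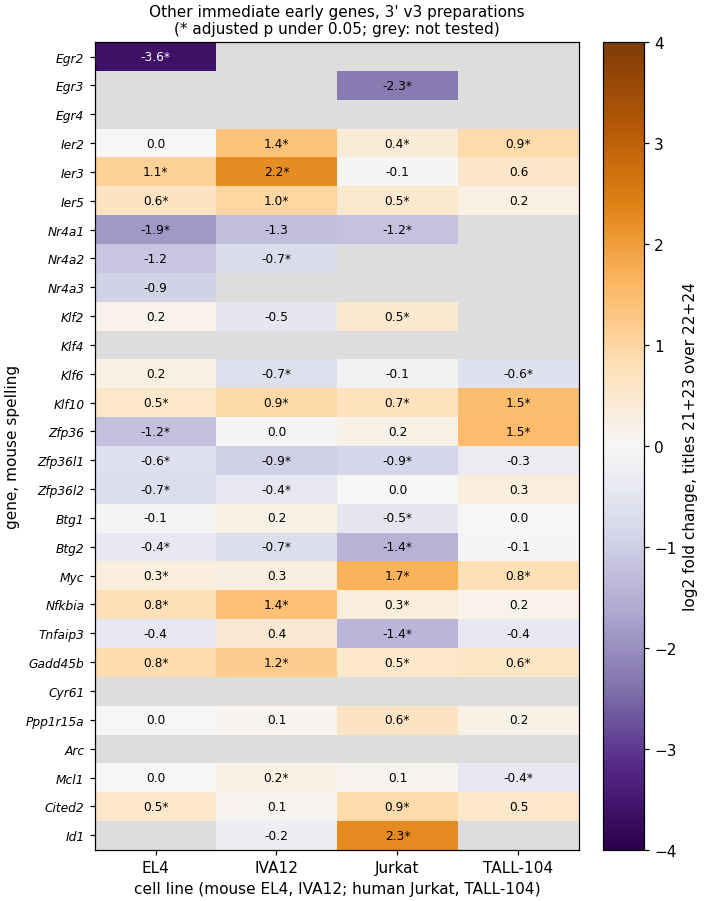
Log2 fold change of 21+23 over 22+24 for the further immediate early genes in the 4 lines (rows are genes in mouse spelling, colour and printed value give the fold change, a star marks adjusted p under 0.05 in edgeR, grey is not tested). Egr2 stands at -3.62 in EL4 and Ier3 at 2.24 in IVA12; values nearer 0 than the scaling shift of 0.24 to 0.39 can change sign without scaling factors.

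In Jurkat the growth regulator MYC (1.66) and ID1 (2.26) were higher in 21+23 and EGR3 (-2.25) and BTG2 (-1.45) lower. In TALL-104 2 of 10 inhibitors were higher, the phosphatase genes DUSP1 (1.53) and DUSP2 (1.73), and 4 were lower (median of the 10 -0.698). Of the further immediate early genes there, ZFP36 (1.5045), KLF10 (1.49), IER2 (0.88) and MYC (0.79) were higher. Counted over the list, against 56.8%, 67.5%, 63.5% and 39.3% of all genes called in EL4, IVA12, Jurkat and TALL-104, 7 higher and 6 lower of 22 passed in EL4, 7 and 5 of 21 in IVA12, 10 and 6 of 21 in Jurkat, and 5 and 2 of 17 in TALL-104. The medians were -0.014, 0.12, 0.19 and 0.24, all within the scaling shift of their line. Of the 19 upstream kinases and factors 15 were lower and 3 higher in IVA12 (median -0.58, all genes -0.0046), with Srf (-1.30), the serum response factor that acts on the Fos and Egr1 promoters, the most changed. In EL4 10 were lower and 4 higher (Srf -1.09), in Jurkat 7 and 3, and in TALL-104 4 and 0.

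Between mixtures, where 56.8% of all genes were called in EL4, 67.5% in IVA12, 63.5% in Jurkat and 39.3% in TALL-104, the further AP-1 family had 2 higher and 5 lower of 11 in EL4, 1 higher and 4 lower of 9 in IVA12, 3 higher and 5 lower of 12 in Jurkat and 1 higher and 1 lower of 8 in TALL-104. The inhibitors had 2 higher and 4 lower of 10 in EL4, 2 higher and 2 lower of 10 in IVA12, 2 higher and 2 lower of 12 in Jurkat and 2 higher and 4 lower of 10 in TALL-104. Between kits, where the shares were 36.7%, 9.66%, 17.5% and 4.32% in the same order, the upstream genes had 1 higher and 5 lower of 19 in EL4, 0 higher and 0 lower of 19 in IVA12, 3 higher and 2 lower of 19 in Jurkat and 1 higher and 0 lower of 19 in TALL-104.

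Differences between lines in the kit or mixture effect (interactions) were also counted for the lists, against 30.6% of all mouse and 1.32% of all human genes called for kit and 11.9% and 17.5% for mixture. Interactions of line with kit were called for 4 higher and 6 lower of 23 further immediate early genes in mouse and 2 higher and 0 lower of 22 in human (BTG1 1.09, PPP1R15A 1.40). In the mouse AP-1 family 4 of 11 were lower in the interaction, EL4 less IVA12, led by Jdp2 (-2.56) and Batf (-2.35). Interactions of line with mixture were called for 2 higher and 4 lower of 23 further immediate early genes in mouse and for 1 higher and 9 lower of 21 in human, led by BTG2 (-1.56) and ZFP36 (-1.54). Of the upstream genes 6 of 19 were higher in the interaction, EL4 less IVA12, with Mkl2 (0.66) and Map2k7 (0.56) the most changed. Such a value can be a smaller decrease in EL4, since most called upstream genes were lower in 21+23 in both lines.

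Genes whose level followed a member most closely over libraries were named from log2(CPM + 1), less the mean of the line, over the 14 sums of library and line, which share libraries and depth. Among 5360 mouse genes Egr1 was most like Skiv2l (Pearson's r 0.986), Fos most like Psmd11 (0.973), Junb most like Napg (0.967), Jun most like Ccdc71l (0.922) and Jund most like Bnip3 (0.919). Among 6438 human genes JUND was most like CD81 (0.989), JUNB like TP53RK (0.973), EGR1 like PFN2 (0.900), JUN like VAMP8 (0.837) and FOS like MORF4L1 (0.818). These genes were ranked on the same values that are described, and they carry no test.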

How the data were processed

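Single-cell libraries of mixtures of 4 lines were analysed in 7 samples. The authors downsampled reads and made the deposited UMI counts per gene and barcode with Cell Ranger 3.0.2 against a combined hg19 and mm10 reference (version 1.2.0), keeping all barcodes. From these counts, cells were assigned by the stated rule, which leaves out barcodes of mixed species up to its limit of 80% but can keep doublets of a deep cell with a shallow one (no doublet caller was run), and counts were summed per library and line. Sums were tested with edgeR 4.0.16 (R 4.3.3) after filterByExpr and TMM scaling, with the library as a block between lines and in interactions. Shares of cells are given unthinned and, for some genes and lines only, with each cell thinned to 1000 or 5000 UMIs. Members read together in the same cells were thinned to 5000 UMIs. Scripts were tested on simulated data. The members and lists were chosen with earlier results of these data known. All 10 members are named, and from each list at most the 4 called genes with the largest change per comparison. Alternatives were RLE scaling, no filter, DESeq2 1.42.0, cells of at least 5000 UMIs or at most 10% mitochondrial UMIs, a target-cell block, single kits or mixtures, and each library left out. Plain CPM, 1 sum per mixture, and single 3′ v3 mixtures for the lines were added after seeing the data. Library depth is in the text.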

Additional observations from a re-analysis of the deposited data

Results flagged for a closer look

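FOS in TALL-104 is given here because 1 of the 4 3′ v3 libraries, replicate 3, stood apart at 2.37 CPM while the others were at 0. By Dixon's criterion chance sets a sample apart in about 1 in 20 groups, a rate that was not checked for counts this low. The criterion was applied to all 10 members in both lines of their species. This was the only value set apart, which is about what that rate gives. The value is 5 UMIs, in the library in which the median TALL-104 cell had 15.3% mouse UMIs, and the part of that background in the value was not tested.

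Differences between lines in the kit effect were found for Jun (interaction -0.94) and Fos (-3.25), in both of which IVA12 gained more in 3′ v3 than EL4 did. Both were tested as an interaction, and both calls were lost without either 5′ v1 library, which leaves 1 library in that arm. The Fos call was also lost without scaling factors (adjusted p = 0.0523, edgeR) and in cells with at most 10% mitochondrial UMIs (adjusted p = 0.0522, edgeR).

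Differences between lines in the mixture effect were found for Jund (0.87), Junb (-1.09) and Fos (-1.94) in the mouse lines and for JUN (-1.64) and JUND (-0.41) in the human lines, each by the interaction test. The 3 mouse interactions kept their call under all alternatives that gave an adjusted p, and DESeq2 gave none for Fos. JUN was -0.11 without 3′ v3 replicate 4, where its call was lost, and its call was also lost with DESeq2 (adjusted p = 0.162). JUND lost its call without 3′ v3 replicate 4 (adjusted p = 0.113, edgeR).

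Barcodes under 100 UMIs, which are not cells, held 8396 UMIs of the mouse members and 631 of the human members. In these barcodes Egr1 ranged from 0 to 29.9 CPM over libraries, and its level was 29.9 and 22.9 CPM in the 22+24 libraries, 5.84 and 7.45 in 21+23 and 0.291 and 0 in 5′ v1. Jund in them was 381 and 351 CPM in 21+23 and 362 and 408 in 22+24, while JUND was 227 and 165 CPM in 21+23, 192 and 201 in 22+24 and 17.9 and 19.9 in 5′ v1.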

How the results depend on the processing

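Of 772 alternative values for members, 677 kept direction and side of the threshold, 42 were no longer called, 32 became called and 21 changed sign. Of 177 alternative counts of called genes, 140 stayed within 1.5 times and 37 did not. By replicate number no paired analysis was possible because the titles give none that kits or mixtures share. The 3′ v3 mixtures share targeted cell numbers, and with these as a block the calls were 7696 (EL4), 8241 (IVA12), 9441 (Jurkat) and 3978 (TALL-104), against 6893, 7954, 8779 and 3584, and no call of a member changed. Lines were compared within libraries, and without the library block no call of a member changed. Depth limits TALL-104 in 5′ v1 and the sparse FOS, Fos and Egr1, and the cause of each change was not tested.

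Sign changes among members were as follows, with the range over leaving out each library. Fos, EL4 against IVA12, was 2.25 in 5′ v1 alone and 0.25 in 22+24 alone, and -0.71 to 0.15 (above 0 without 3′ v3 replicate 1 or 3). Jund, kits in EL4, was 0.38 with 21+23 alone and -0.33 to 0.093 (above 0 without 3′ v3 replicate 2 or 4, or 5′ v1 replicate 2). Junb, kits in IVA12, was -0.45 with 22+24 alone. JUN, kits in TALL-104, was -0.051 without scaling factors, -0.62 with 22+24 alone and -0.22 to 0.40 (below 0 without 3′ v3 replicate 1 or 5′ v1 replicate 1). Between mixtures, Jun in IVA12 was -0.0064 without scaling factors, Junb in EL4 was -0.094 to 0.029 (above 0 without 3′ v3 replicate 2), JUN in Jurkat -0.62 to 0.98 (above 0 without 3′ v3 replicate 4) and EGR1 in Jurkat -0.32 to 0.029 (above 0 without 3′ v3 replicate 3). Among interactions, Egr1 by kit was 0.13 in DESeq2, Egr1 by mixture -1.74 to 0.53 (above 0 without 3′ v3 replicate 3), and JUNB by mixture -0.35 in cells with at most 10% mitochondrial UMIs and -0.20 to 0.49 (below 0 without 3′ v3 replicate 2).

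Counts of called genes moved as follows. Jurkat against TALL-104 went from 6670 to 3231 in 5′ v1 alone. Kits in EL4 went from 4480 to 7906 (21+23 alone) and 8210 (22+24 alone), and from 1063 to 4347 leaving out each library. Kits in IVA12 went from 1164 to 2002 in DESeq2, 7025 and 7711 with single mixtures, and 18 to 846 leaving out each library. Kits in Jurkat went from 2473 to 8210 and 9434, and 113 to 2156. Kits in TALL-104 went from 386 to 706 with no filter, 1303 and 2247, and 9 to 628. Mixtures in TALL-104 went from 3584 to 1480 in DESeq2, and 1591 to 3144. Line by kit in mouse went from 4036 to between 1452 and 4330, and in human from 160 to 290 with no filter and 2 to 357. Line by mixture in mouse went from 1564 to 847 in DESeq2 and 212 to 2239, and in human from 2050 to 679 in DESeq2 and 831 to 1734. The lowest kit counts came without a 5′ v1 library, and the lowest line by mixture counts of mouse without 3′ v3 replicate 4.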
